A study of Mus musculus with 22 samples.

Results

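A group of 9 genes that mark fetal liver, liver progenitor cells or bile duct epithelium were followed in 22 MYC-driven mouse liver tumours: Afp, Gpc3, Sox9, Krt19, Krt7, Epcam, Spp1, Cd24a and Prom1. They were chosen by symbol, and all 9 were found among the 24063 genes of a first set of 12 tumours and the 24019 genes of a second set of 10 tumours. All 9 also passed the filter on low values in both sets.

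Every tumour carried MYC and arose in a C57BL/6 mouse after hydrodynamic tail-vein injection, a rapid injection that drives plasmid DNA into hepatocytes, and no mouse was treated. The second driver was p53 loss or β-catenin (bcat in the first set, CTNNB1 in the second), and a reporter was also delivered, either luciferase (luc) or lucOS, a luciferase that carries model T cell antigens. Set 1 held 6 p53 tumours (3 with lucOS, 3 with luc) and 6 β-catenin tumours (2 with lucOS, 4 with luc). Set 2 held 4 p53 tumours, all with lucOS, and 6 β-catenin tumours (3 with each reporter), and its p53 tumours carried sgp53, a guide RNA against p53. In set 2 the β-catenin tumours and p53 tumour 4 have names that begin with JAX, while p53 tumours 1 to 3 have names that begin with AL, so driver and naming series largely coincide there. Tumours are numbered in the order of their records, and the labels do not say that they came from separate animals, so p-values measure the spread between these tumour samples. No normal liver was analysed here.

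Fetal hepatoblasts, the cells from which hepatocytes and bile duct cells both arise, make Afp and Gpc3, and these genes are shut down in the liver after birth. Sox9 is a transcription factor of bile duct cells and of hepatocytes that take on duct features, and Krt19, Krt7, Epcam, Spp1, Cd24a and Prom1 are used as markers of ducts or of progenitor cells. In liver cancer the reappearance of these genes is widely read as a loss of mature hepatocyte identity.

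Values are normalised read counts, that is, whole reads divided by 1 factor per tumour. Depth ran from 33.706 M to 54.873 M reads (M, mega) over genes in set 1 and from 33.551 M to 50.116 M in set 2, and the value of 1 read was between 0.7277 and 1.3579. Trp53 was lower in the tumours labelled p53 (1345 to 2280 over both sets) than in those labelled β-catenin (2631 to 4994). Axin2, a direct target of β-catenin, was at 349 to 3586 in the β-catenin tumours and at most 103 in the p53 tumours. Hepatocyte markers were present in every tumour, with a sum of 10 genes between 425274 and 1702430. The sets were scaled separately, so every test was made within 1 set.

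Among the 9 genes, the differences between drivers that passed the test were few. Sox9 was lower in β-catenin than in p53 tumours of set 1, both with luc and with lucOS. Cd24a was higher in lucOS β-catenin than in lucOS p53 tumours of set 2. No gene of the 9 passed in any comparison of lucOS with luc. The main feature of the values was the spread among tumours of 1 genotype, which for Afp in set 2 reached 624-fold.

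**Figure D1:**
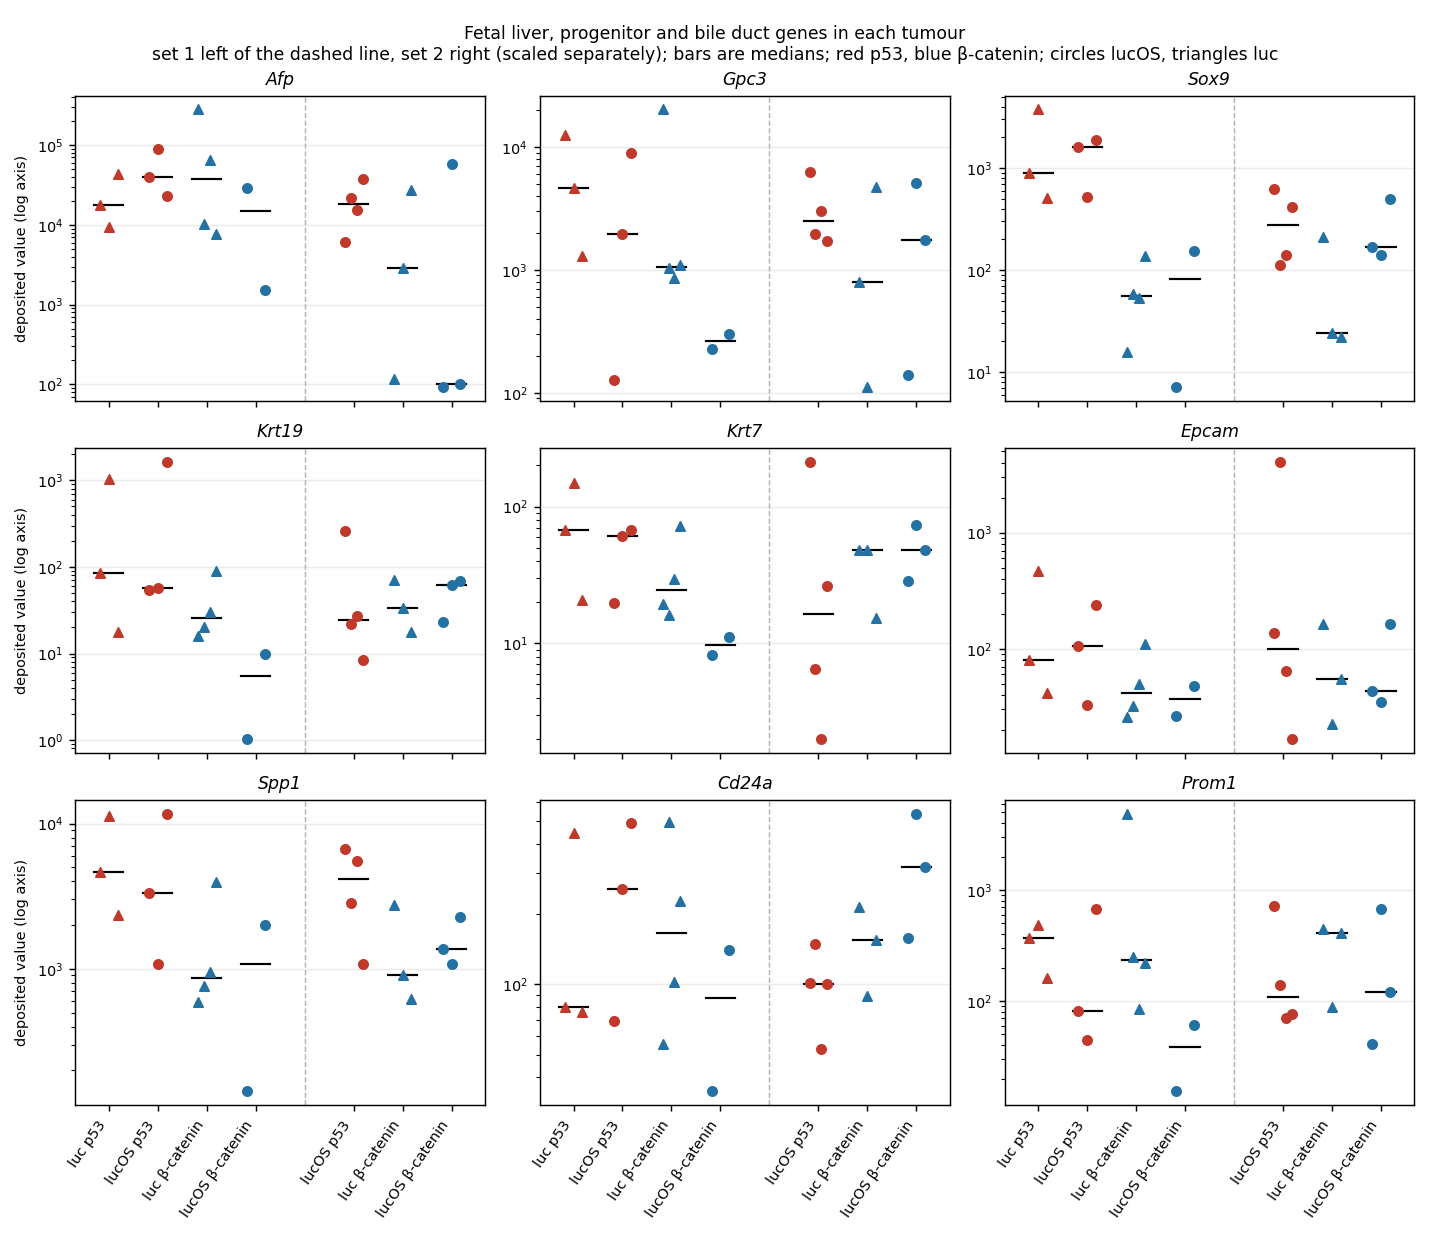
Normalised read count (log axis) of each of the 9 genes in every tumour, by group, with set 1 to the left of the dashed line and set 2 to the right; bars are group medians, red marks p53, blue β-catenin, circles lucOS and triangles luc. The Sox9 groups of set 1 separate by driver, whereas Afp in the β-catenin tumours of set 2 runs from 93.1 to 58166.

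Per kilobase of transcript, Afp had the highest median level over the 12 tumours of set 1, at 12426, followed by Spp1 at 1547 and Gpc3 at 538. The remaining medians per kilobase were 79.9 for Sox9, 66.5 for Cd24a, 47.9 for Prom1, 26.7 for Krt19, 23.9 for Epcam and 6.14 for Krt7. Lengths were taken from GENCODE and may not be the models the authors counted. Krt7 was given 4094 bases, and a shorter model would raise its value per kilobase. The ranges of all neighbours in this order overlapped: Afp ran from 730.1 to 135278 per kilobase and Spp1 from 101 to 8241. The 2 fetal hepatocyte genes and Spp1 thus stood above the keratins in the median, while single tumours departed from this order.

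The upstream sequence of the 3 genes with the highest levels is shown because Afp and Gpc3 are both classed as fetal hepatocyte genes and differ widely in base composition. Each run is the 250 bases before the RefSeq start (GRCm38.p6, the assembly of mm10), 5′ to 3′ on the gene's strand, and capitals mark motif matches. Afp is on the plus strand at chr5:90490464-90490713, Gpc3 on the minus strand at chrX:52613975-52614224 and Spp1 on the plus strand at chr5:104434861-104435110.
Afp: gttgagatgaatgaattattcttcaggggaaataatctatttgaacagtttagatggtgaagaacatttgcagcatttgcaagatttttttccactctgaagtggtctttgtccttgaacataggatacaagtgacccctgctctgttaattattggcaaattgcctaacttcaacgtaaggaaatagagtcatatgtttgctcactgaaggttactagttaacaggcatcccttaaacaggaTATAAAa
Gpc3: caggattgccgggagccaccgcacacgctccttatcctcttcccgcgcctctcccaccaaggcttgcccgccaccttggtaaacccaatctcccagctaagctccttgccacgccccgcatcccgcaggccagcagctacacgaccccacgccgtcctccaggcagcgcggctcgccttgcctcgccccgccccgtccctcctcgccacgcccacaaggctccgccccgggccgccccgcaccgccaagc
Spp1: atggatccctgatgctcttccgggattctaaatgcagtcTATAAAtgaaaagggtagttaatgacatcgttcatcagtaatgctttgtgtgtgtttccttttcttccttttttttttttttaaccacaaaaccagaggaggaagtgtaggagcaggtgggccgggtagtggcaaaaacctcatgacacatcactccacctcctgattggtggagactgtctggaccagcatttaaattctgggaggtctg
The Gpc3 window held 71.6% G and C and 25 CG dinucleotides, the Afp window 36.0% and 1, and the Spp1 window 43.6% and 3, against medians of 52.4% and 6 over 32851 promoters. Both strands were searched for a TCF/LEF motif (CTTTGAT or CTTTGAA, in 7.48% of promoters), a TEAD motif (GGAATG, 12.6%), an E-box (CACGTG, 6.02%) and a TATA box (TATAAA, 12.4%). Afp had TATAAA at -7 to -2 from the RefSeq start, which is -30 to -25 from the GENCODE start further downstream. Spp1 had TATAAA at -211 to -206 in the run shown. The 250 bases before another RefSeq start of Spp1 (chr5:104435942-104436191) held no match to any of the motifs. The Gpc3 window held none of these letters, and such matches describe sequence only. RefSeq's table held 6 of the 9 genes (also Krt7, Epcam and Prom1) and had no entry for Sox9, Krt19 or Cd24a.

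The first question was how the second driver affected the fetal hepatocyte genes. Afp (ENSMUSG00000054932.6, chr5:90490737-90508907 on GRCm38), the fetal counterpart of albumin, was at 17981, 9356 and 43285 in luc p53 tumours and at 279078, 10375, 65658 and 7674 in luc β-catenin tumours of set 1. With lucOS it was at 40139.9, 89114 and 22728 in p53 tumours and at 28542 and 1506 in β-catenin tumours. All these ranges overlapped between drivers. In set 2 the 4 lucOS p53 tumours lay close together on this scale, at 6164, 21510.4, 15455 and 37410, whereas the lucOS β-catenin tumours were at 93.1, 58166 and 100.4 and the luc β-catenin tumours at 118, 2875 and 27609. Thus 3 of the 6 β-catenin tumours of set 2 had Afp values under 120, far below every p53 tumour of the set. Luc β-catenin tumour 2, at 2875, was also below every p53 tumour. Luc β-catenin tumour 3 lay within the p53 range, and lucOS β-catenin tumour 2 was above it. The mean difference of β-catenin from p53 was 0.84 ± 1.27 (SE) on the log2 scale with luc in set 1, -2.72 ± 1.52 with lucOS in set 1 and -4.34 ± 2.33 in set 2. None passed (limma, adjusted p = 0.676, 0.305 and 0.215). Without lucOS β-catenin tumour 2, the tumour at 58166, the set 2 difference was -7.41 (limma, adjusted p = 0.0269), and in edgeR and DESeq2, with all tumours, it was 0.0900 and 0.0952.

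Hepatocyte marker sums moved with Afp among the β-catenin tumours of set 2. The 3 tumours with Afp under 120 had sums of 456012, 488954 and 935465, and the other 3 had sums of 1180420, 1355230 and 1372570. The p53 tumours of set 2 had high Afp at sums of 425274 to 780511. In the β-catenin tumours of set 1 the sums stayed between 1405070 and 1702430, while Afp ran from 1506 to 279078. In bulk tissue, fewer cells of a type and less RNA per cell cannot be told apart, and whether cell make-up played a part was not tested.

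Gpc3 (ENSMUSG00000055653.13, chrX:52272426-52613950), a cell-surface heparan sulfate proteoglycan of fetal liver, was at 12487, 4667 and 1298 in luc p53 and at 20174, 1026, 852 and 1087 in luc β-catenin tumours of set 1. The lucOS p53 tumours were at 128, 1953 and 8955 and the lucOS β-catenin tumours at 225 and 299. One luc β-catenin tumour therefore held the highest Gpc3 of the set, while the other 3 were below every luc p53 tumour. Set 2 had 6214, 1945, 3027 and 1724 in lucOS p53, 138, 5053 and 1750.2 in lucOS β-catenin, and 791, 112 and 4738 in luc β-catenin tumours. The driver differences were -1.01 ± 1.42, -2.33 ± 1.70 and -1.39 ± 1.36 (log2, SE; set 1 luc, set 1 lucOS, set 2 lucOS), and none passed (limma, adjusted p = 0.651, 0.440 and 0.497). Luc β-catenin tumour 1 of set 1 was the highest tumour for Afp, Gpc3 and Prom1 alike.

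Sox9 (ENSMUSG00000000567.5, chr11:112782224-112787760) gave the largest driver difference that passed. In set 1 it was at 888, 3759 and 505 in luc p53 and at 15.9, 58.0, 52.8 and 137 in luc β-catenin tumours. The lucOS p53 tumours were at 1612, 517 and 1894 and the lucOS β-catenin tumours at 7.16 and 156. No β-catenin tumour of set 1 reached the lowest p53 tumour with either reporter. Sox9 was 22.9-fold lower in β-catenin tumours with luc (log2 -4.51 ± 1.04, adjusted p = 0.0179, limma) and 32.6-fold lower with lucOS (-5.03 ± 1.25, adjusted p = 0.0488). It was the only 1 of the 9 genes called in each comparison, where 15.1% of all genes tested were called with luc (9.16% lower) and 4.21% with lucOS (2.59% lower). Groups did not overlap for 34.1% of all genes in the luc comparison (β-catenin below p53 for 23.2%) and for 37.8% in the lucOS comparison (24.3%).

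The luc call was lost when luc p53 tumour 1 (adjusted p = 0.0565) or tumour 2 (0.0742) was left out, over a range of adjusted p from 2.02e-05 to 0.0742 in all alternatives. The lucOS call rested on 2 β-catenin tumours and was lost under 9 of 13 alternatives: without p53 tumour 1 or 3 or β-catenin tumour 1, under either rescaling, with no filter, with summed transcripts, with those groups alone and in edgeR, with adjusted p from 0.0517 to 0.235 among these.

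Set 2 gave different values for Sox9. The lucOS p53 tumours were at 628, 113, 140.3 and 417 and the lucOS β-catenin tumours at 169, 140.1 and 497. These ranges overlapped, and the difference was -0.16 ± 0.89 (limma, adjusted p = 0.918), with a 95% interval from -2.15 to 1.84. The luc β-catenin tumours were at 214, 24.2 and 22.2, 2 of them below all tumours of the other groups. A difference between the sets was not tested, because they were scaled apart.

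Genes of kidney tubule, an epithelium that also makes Sox9, Spp1 and Prom1, moved with the driver in the same tumours. The sum of 7 tubule markers was 1702 to 5503 in luc p53 and 73.7 to 4065 in lucOS p53 tumours of set 1, against 11.6 to 43.5 in luc and 18.4 to 36.1 in lucOS β-catenin tumours. In set 2 it was 1946 to 7093 in lucOS p53, 11.6 to 607 in lucOS β-catenin and 11.9 to 139 in luc β-catenin tumours. Cdh16, an adhesion protein of tubule cells, was called lower with β-catenin in all 3 comparisons (log2 -9.17, -7.32 and -10.30, adjusted p = 0.00299, 0.0397 and 5.71e-05 by limma). Umod was at 0 in the luc β-catenin tumours of both sets and in the lucOS β-catenin tumours of set 1. In set 2 it did not pass the filter on low values over all tumours and was not tested. The lucOS p53 tumour with the lowest sum, 73.7, had a Sox9 value of 517. The part of such cells or genes in the Sox9 difference was not tested.

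**Figure D2:**
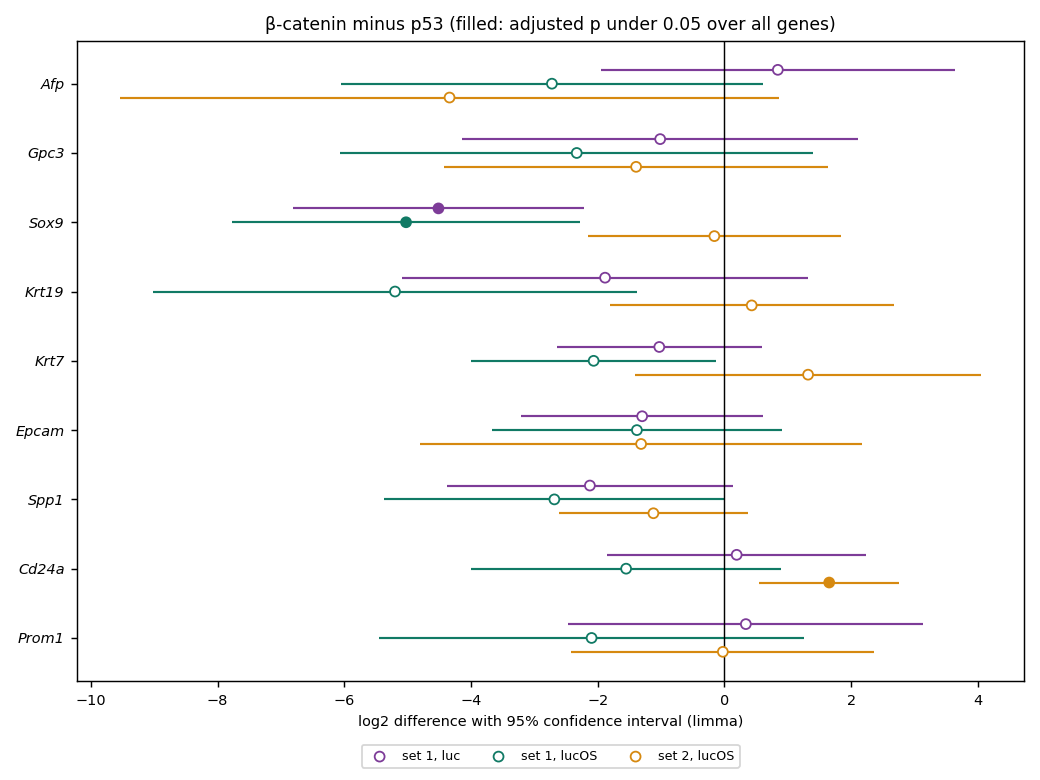
Difference of β-catenin from p53 tumours (log2, limma) for each gene in the 3 driver comparisons, with 95% confidence intervals; filled points passed at an adjusted p under 0.05. Sox9 lies at -4.51 and -5.03 in set 1 and at -0.16 in set 2, and Cd24a at 1.65 in set 2.

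The duct keratins were low in most tumours and high in a few. Krt19 (ENSMUSG00000020911.14, chr11:100140810-100148665), a keratin of bile duct cells that adult hepatocytes lack, was at 84.2, 1031 and 17.7 in luc p53 and at 15.9, 20.5, 30.4 and 90.6 in luc β-catenin tumours of set 1. With lucOS it was at 53.6, 56.8 and 1645 in p53 and at 1.02 and 9.97 in β-catenin tumours, the value of 1.02 being a single read. The lucOS groups thus did not overlap, and the difference was -5.20 ± 1.74, which did not pass in limma (adjusted p = 0.106). DESeq2 called it (-6.63, adjusted p = 0.000994), and over all alternatives adjusted p ran from 0.000994 to 0.348. With luc the difference was -1.88 ± 1.46 (limma, adjusted p = 0.394). In set 2 Krt19 was at 258, 22.1, 26.9 and 8.32 in lucOS p53, 23.3, 62.2 and 69.1 in lucOS β-catenin and 70.9, 33.9 and 17.9 in luc β-catenin tumours, with overlap and a driver difference of 0.43 (limma, 95% interval from -1.81 to 2.67, adjusted p = 0.793).

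Krt7 (ENSMUSG00000023039.17, chr15:101411043-101430313), a keratin of larger ducts, had the lowest median level per length of the 9 genes in set 1, at the length used above. Set 1 values were 67.9, 148 and 20.8 in luc p53, 19.3, 16.2, 29.5 and 72.1 in luc β-catenin, 19.7, 60.7 and 67.2 in lucOS p53 and 8.18 and 11.2 in lucOS β-catenin tumours. With lucOS both β-catenin tumours lay below all p53 tumours, as for Krt19, but the difference of -2.06 ± 0.88 did not pass (limma, adjusted p = 0.183), nor did that with luc (-1.03 ± 0.74, adjusted p = 0.357). In set 2 p53 tumours held both the highest value, 213, and the lowest, 1.99, with 6.44 and 26.1 between them. The β-catenin tumours of set 2 were at 28.4, 73.0 and 47.7 with lucOS and at 48.4, 48.5 and 15.3 with luc, and the driver difference was 1.32 ± 1.23 (adjusted p = 0.475).

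Epcam (ENSMUSG00000045394.9, chr17:87635979-87651129), an epithelial adhesion protein of ducts and progenitors, stood out in a single tumour. In set 2 lucOS p53 tumour 2 was at 4074, while the other p53 tumours were at 137, 63.7 and 16.6. The same tumour had low values of the duct keratins, with Krt19 at 22.1 and Krt7 at 6.44. The β-catenin tumours of set 2 were at 43.7, 34.8 and 162 with lucOS and at 163, 22.3 and 55.4 with luc, so p53 tumour 2 was above all others. Set 1 held 80.1, 465 and 41.5 in luc p53, 26.1, 32.4, 50.1 and 110.0 in luc β-catenin, 105, 32.9 and 238 in lucOS p53, and 26.6 and 47.3 in lucOS β-catenin tumours. All these groups overlapped, and the driver differences of -1.30 ± 0.87, -1.38 ± 1.04 and -1.32 ± 1.56 did not pass (limma, adjusted p = 0.327, 0.458 and 0.586). Without p53 tumour 2 the set 2 difference was 0.24, on the other side of 0.

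Spp1 (ENSMUSG00000029304.14, chr5:104435118-104441050), which encodes osteopontin, a secreted protein of duct cells and macrophages, was at 4663, 11294 and 2349.6 in luc p53 and at 593, 764, 955 and 3934 in luc β-catenin tumours. The lucOS tumours of set 1 were at 3330.4, 1076 and 11628 with p53 and at 143 and 2017 with β-catenin. Medians were lower with β-catenin, but 1 β-catenin tumour with each reporter reached into the p53 range. Set 2 had 6652, 2823, 5487 and 1076 in lucOS p53, 1363, 1071 and 2270.2 in lucOS β-catenin and 2763, 903 and 621 in luc β-catenin tumours. The differences were -2.12 ± 1.03, -2.68 ± 1.23 and -1.12 ± 0.67, and none passed (limma, adjusted p = 0.177, 0.214 and 0.260). Sums of 10 macrophage markers were 2492 to 14191 in luc p53 and 7488 to 20232 in luc β-catenin tumours, 11844 to 16146 and 6659 to 20243 in the lucOS groups of set 1, and 10417 to 20407 and 6914 to 14934 in those of set 2. These sums leaned towards the β-catenin tumours with luc in set 1 and towards the p53 tumours in set 2, with overlap throughout. Of the 10 macrophage genes, limma called 1 higher with luc in set 1, where 15.1% of all genes were called. In set 2, where 17% of all genes were called, it called 1 higher and 2 lower. The part of macrophages in the Spp1 values was not tested.

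Cd24a (ENSMUSG00000047139.9, chr10:43578284-43584265), a small lipid-anchored glycoprotein of progenitor and many blood cells, was the only 1 of the 9 genes called in set 2. The lucOS p53 tumours were at 101, 149, 52.7 and 99.8 and the lucOS β-catenin tumours at 158, 536 and 317, without overlap, and the luc β-catenin tumours were at 214, 89.2 and 155. Cd24a was 3.15-fold higher in the lucOS β-catenin tumours (log2 1.65 ± 0.50, adjusted p = 0.0476, limma), in a comparison where 17% of all genes were called (6.08% higher) and 32.7% had groups that did not overlap (10.3% with β-catenin above). The call was lost when any 1 of the p53 tumours or lucOS β-catenin tumour 2 or 3 was left out (adjusted p from 0.0516 to 0.130), with no filter (0.0577) and with those groups alone (0.0600). Among tumours named JAX only, where p53 has 1 tumour, whose spread is assumed to be that of the other groups, the difference was 1.58 (adjusted p = 0.603).

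Set 1 did not show this difference in Cd24a. Its values were 80.1, 443 and 76.1 in luc p53, 55.5, 497, 102 and 228 in luc β-catenin, 69.7, 257 and 492 in lucOS p53 and 34.8 and 139.5 in lucOS β-catenin tumours. The groups overlapped, with differences of 0.19 ± 0.93 and -1.55 ± 1.12 (limma, adjusted p = 0.902 and 0.432). Among blood cell markers in set 2, 0 of 3 B cell and 0 of 6 red blood cell genes tested were called by limma (0 of each at an unadjusted p under 0.05), and 1 of 4 neutrophil genes was called lower, although all 6 red blood cell differences were positive, with a median of 0.42. Sums of 5 B cell markers were 33.3 to 161 in lucOS p53 and 28.2 to 64.8 in lucOS β-catenin tumours, those of 4 neutrophil markers 151 to 997 and 141 to 232, and those of 6 red blood cell markers 2964 to 7633 and 4757 to 8301, and their part in the Cd24a difference was not tested. Siglecg, a receptor that binds the Cd24 protein, was called lower with β-catenin in set 2 (-2.52 ± 0.62, adjusted p = 0.0249, limma). It was at 7.13 to 30.4 in lucOS p53 and 0.83 to 5.09 in lucOS β-catenin tumours. All lucOS β-catenin values were thus below the filter value of 10, and 1 read stood for 0.73 to 0.83 in these tumours. The size of the Siglecg difference therefore rests on few reads in that group, and a link to Cd24a was not tested.

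Prom1 (ENSMUSG00000029086.15, chr5:43993620-44102032), a membrane protein also called CD133 that marks progenitor cells, was at 372, 480.0 and 159.9 in luc p53 and at 4828, 247.5, 84.1 and 220.0 in luc β-catenin tumours. With lucOS it was at 81.3, 44.8 and 670.0 in p53 and at 15.3 and 61.0 in β-catenin tumours of set 1. Luc β-catenin tumour 1 was far above the rest, and the driver groups overlapped within each reporter. Set 2 values were 710.0, 141, 70.6 and 76.0 in lucOS p53, 40.8, 678 and 120.1 in lucOS β-catenin and 449, 88.2 and 407 in luc β-catenin tumours. The driver differences were 0.34 ± 1.28, -2.10 ± 1.53 and -0.03 ± 1.07, and none passed (limma, adjusted p = 0.875, 0.438 and 0.990). The last turned to 0.13 under TMM rescaling and to 0.09 when each tumour was centred on its median. The first table lists 8 RefSeq transcripts of Prom1 with mean values from 447 to 605, and the highest stood for the gene.

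Over the list of 9 genes, each driver comparison had 1 call and more negative than positive differences, and no test of the list was made. With lucOS in set 1 all 9 differences were negative, with a median of -2.33 against -0.15 over all genes, and with luc 6 of 9 were negative, with a median of -1.03 against -0.20. In set 2, 6 of 9 were negative and the median of -0.16 was that of all genes, -0.16. The deposited scaling itself put the median gene slightly below 0, and TMM rescaling moved it to -0.0122, -0.00116 and -0.00618 in the 3 comparisons, in the order luc, lucOS, set 2. The lucOS differences of set 1 stayed negative for all 9 genes whichever of the 5 tumours compared was left out. The 9 genes share the same tumours, and lucOS β-catenin tumour 1 of set 1 had the lowest value of 6 of them.

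**Figure D3:**
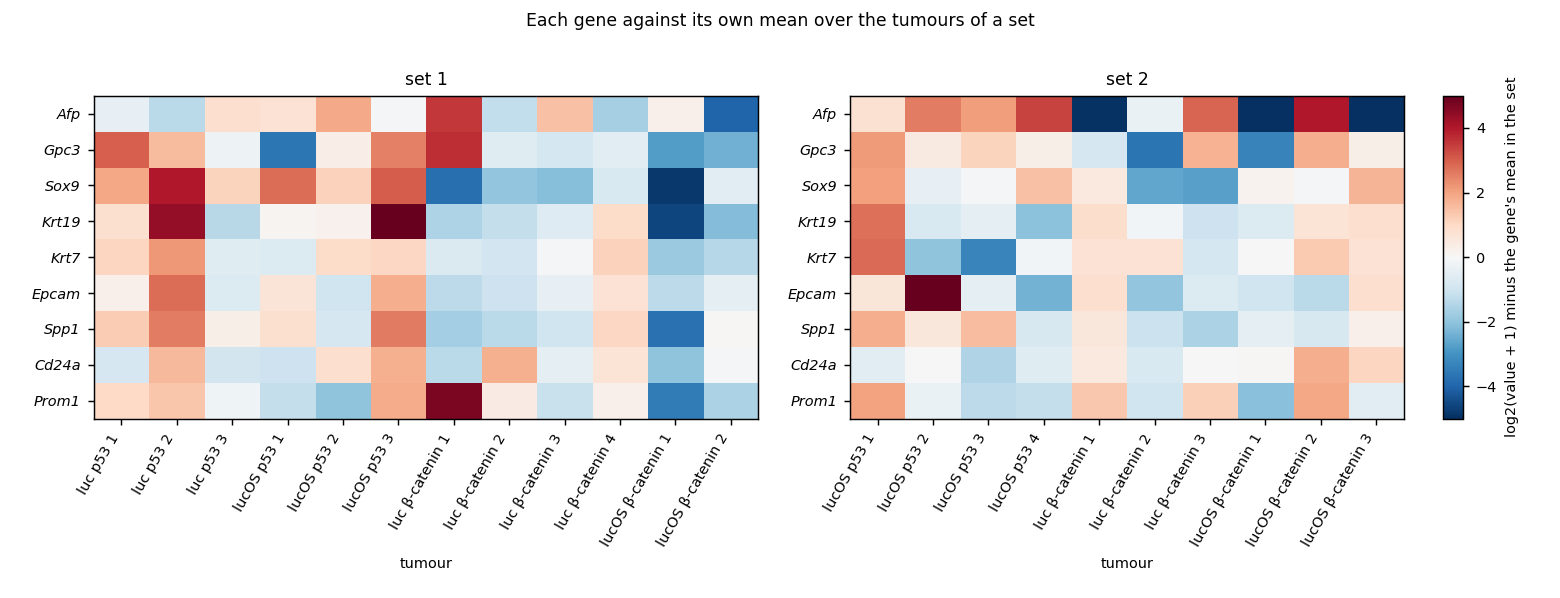
Log2(value + 1) of each gene minus its mean over the tumours of a set, by tumour, for set 1 and set 2; red is above and blue below the mean, and the colour scale ends at 5 in each direction. Rows differ in which tumours are high, and lucOS β-catenin tumour 1 of set 1 is the lowest column for 6 of the 9 genes.

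Certain tumours were high for several of the genes at once. In set 1 luc p53 tumour 2 and lucOS p53 tumour 3 were each among the 3 highest of 12 tumours for 7 of the 9 genes. Luc p53 tumour 2 led for Epcam, Krt7 and Sox9, and lucOS p53 tumour 3 for Krt19 and Spp1. In set 2 lucOS p53 tumour 1 was the highest of 10 tumours for 6 genes, namely Gpc3, Krt19, Krt7, Prom1, Sox9 and Spp1. These 3 were p53 tumours, but β-catenin tumours were also high for several genes. In set 2 lucOS β-catenin tumour 2 was among the 3 highest for 5 genes and led for Afp and Cd24a. LucOS β-catenin tumour 3 and luc β-catenin tumour 1 of set 2 were each among the 3 highest for 4 genes. In set 1 luc β-catenin tumour 1 led for Afp, Gpc3 and Prom1. For Krt19 in set 1, luc p53 tumours 1 and 3 lay within the range of the luc β-catenin tumours. For Sox9 in set 1 every p53 tumour lay above all β-catenin tumours. Among the p53 tumours named for several genes, Afp did not follow: luc p53 tumour 2 had the lowest Afp of its group and lucOS p53 tumour 1 of set 2 the lowest of its own.

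Spread within groups put the 9 genes among the most variable of the data. The within-group SD of log2 values was 1.03 to 2.22 in set 1, where the median gene had 0.46, and 0.71 to 3.61 in set 2, where the median gene had 0.39. Afp in set 2, at 3.61, exceeded 99.96% of all kept genes, and Epcam, at 2.40, exceeded 99.3%. The smallest were Krt7 in set 1 (1.03, above 83.7%) and Cd24a in set 2 (0.71, above 76.5%). The precision of each group mean is set by this spread and the number of tumours rather than by read counts, although the lowest tumour rested on 1 read for Krt19, 2 for Krt7 and 7 for Sox9.

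Genes with the most similar profile were sought by the root mean square difference of centred log2 values over all 22 tumours, among 15104 genes kept in both sets. Krt19 and Spp1 were close (1.21, the smallest for Krt19), as were Gpc3 and Prom1 (1.39, the smallest for Gpc3). Spp1 itself was nearest to Bcl2 (0.66), Mlph (0.67) and Rrad (0.71), and Sox9 to Epb4.1l4a (1.17), Cbx6 (1.18) and Bhlhe41 (1.22). Afp was nearest to Igsf23 (1.47), Zfhx4 (1.82) and Serpinf2 (1.83), and was farther from each of the other 8 genes, at 2.64 for Gpc3 to 3.89 for Sox9. Distances of the median gene were 2.77 from Afp, 2.11 from Krt19 and 2.15 from Gpc3. Krt7 was nearest to 4930562C15Rik, Crb2 and Zfp781 (1.05 to 1.12), Epcam to Cd40, Apc2 and Ogdhl (0.88 to 0.99), Cd24a to Tmcc2, Cox7a1 and Thsd4 (0.77 to 0.85) and Prom1 to Neurl1a, Zan and Fam110c (1.06 to 1.22). All these values come from the same tumours and are descriptions only.

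Of 12 other fetal liver genes, 3 were called lower and 0 higher with β-catenin in set 1 with luc, where 15.1% of all genes were called: Dlk1, a membrane protein of hepatoblasts (log2 -6.73, adjusted p = 0.0485), Lin28b, which blocks let-7 maturation (-5.96, 0.0321), and Igf2bp3, an oncofetal RNA-binding protein (-0.90, 0.0452; limma). With lucOS in set 1, where 4.21% of all genes were called, none of the 12 passed in limma. An unadjusted p under 0.05 was seen for 3 of them, without a computed share of all genes to set beside it. In set 2, where 17% of all genes were called, 10 were tested and Dlk1 (-8.61, adjusted p = 0.00933) and Plag1, a fetal zinc finger factor (-3.70, 0.00726), were called lower and Tspan8, a tetraspanin, higher (2.44, 0.0337). Dlk1 ran from 30161 to 75597 in luc p53 and from 47.4 to 20738 in luc β-catenin tumours of set 1, so its groups did not overlap. In set 2 Dlk1 was at 11448 to 59455 in lucOS p53 and 2.18 to 379 in lucOS β-catenin tumours.

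Genes at the Afp locus and regulators of Afp formed the next list. Alb, the neighbour of Afp on chromosome 5, was called higher with β-catenin in set 1 with luc (1.58, adjusted p = 0.0210), as was Cebpa, a hepatocyte transcription factor (0.98, 0.0432). These were 2 of 12 genes tested, near the 15.1% of all genes called there. Of the 12, 10 had positive differences, as Afp did (0.84 ± 1.27, not called). With lucOS in set 1, where 4.21% of all genes were called, 0 of 12 passed and 1 had an unadjusted p under 0.05. All 12 differences were positive there, whereas that of Afp was negative (-2.72 ± 1.52, not called). In set 2, where 17% of all genes were called, 1 of 12 was called. This was Zfhx3, a factor named for binding the Afp gene's control region, which was lower (-1.08, adjusted p = 0.0372 by limma). Zhx2 and Zbtb20, repressors of Afp after birth, were named after their values had been seen. Zhx2 was at 420 to 1070.1 and Zbtb20 at 71.5 to 412 over all tumours, both far narrower than the range of Afp.

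Of 19 bile duct genes outside the 9 tested with luc in set 1, 3 were called lower and 0 higher, near the 15.1% of all genes called there, among them Sctr, the secretin receptor (-2.65, adjusted p = 0.0232), and Bicc1, an RNA-binding protein linked to cystic ducts (-2.52, 0.0154; limma). With lucOS in set 1, where 4.21% of all genes were called, none of 19 passed in limma. Of these, 6 had an unadjusted p under 0.05, and the share of all genes under that threshold was not computed. In set 2, with 17% of all genes called, 5 of 18 were called lower, among them Bicc1 (-2.88, adjusted p = 0.0293), and 2 higher, the transcription factor Onecut2 (4.47, 0.0168) and the protease Mmp7 (3.90, 0.0124). Bicc1 is also a gene of kidney tubule, whose marker sums moved with the driver as given above for Sox9.

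**Figure D4:**
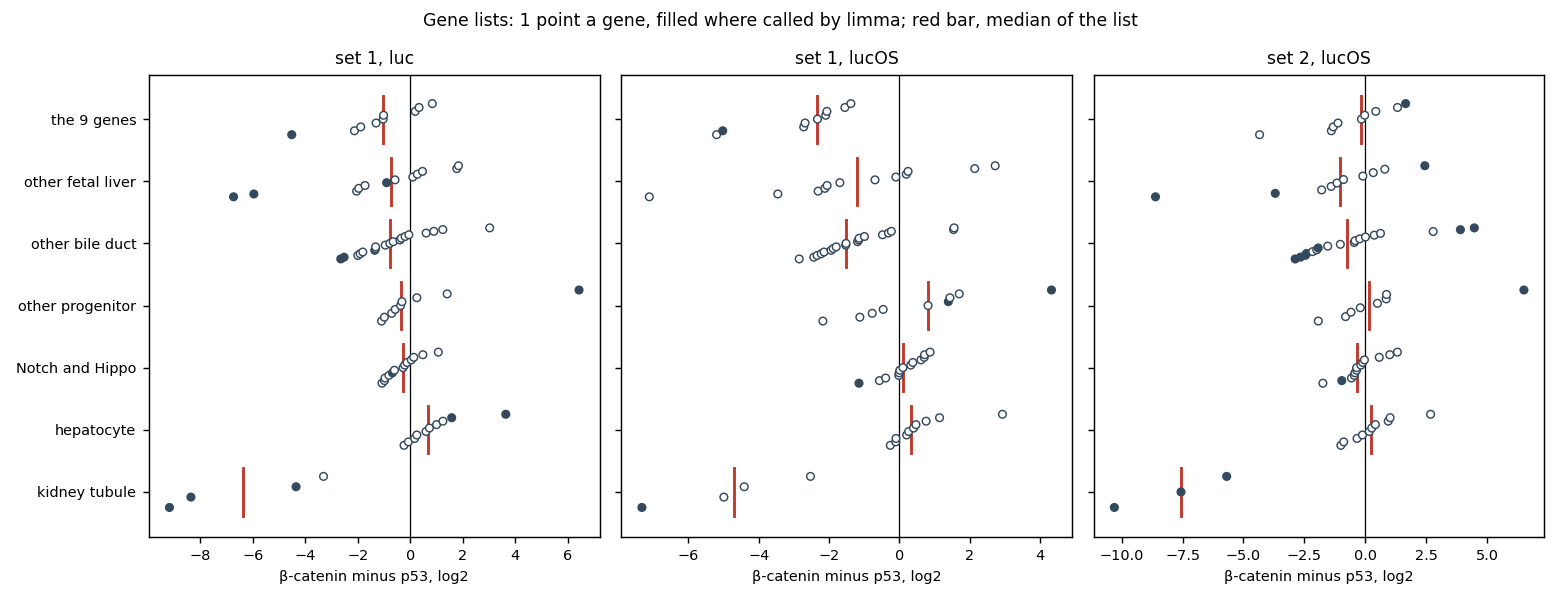
Differences of β-catenin from p53 (log2) for the tested genes of 7 lists in the 3 driver comparisons; each point is a gene, filled where called by limma, and the red bar is the median of the list. The kidney tubule genes lie furthest below 0, and Lgr5, the filled point at 4.32 to 6.51 in the progenitor list, furthest above.

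The share of all genes called by limma was 15.1% with luc in set 1, 4.21% with lucOS in set 1 and 17% in set 2. Of other progenitor genes, 9 were tested in set 1 and 8 in set 2. Lgr5, a stem cell receptor and itself a β-catenin target, was called higher in all 3 comparisons (6.43, 4.32 and 6.51, adjusted p = 0.000347, 0.0207 and 0.000101 by limma). It ran from 172.8 to 1487 in β-catenin and from 0.91 to 46.0 in p53 tumours over both sets. The only other call in this list was Tnfrsf12a, the TWEAK receptor on progenitor cells, higher with lucOS in set 1 (1.39, adjusted p = 0.0341). In the Notch and Hippo list 1 of 13 genes was called in each comparison, against those shares of all genes. It was Notch2, of the Notch signalling that directs hepatoblasts towards duct cells, and it was lower with β-catenin (-0.68, -1.15 and -0.97, adjusted p = 0.0306, 0.0215 and 0.0332 by limma). Notch2 was at 5108 to 8947 in p53 tumours and at 2244 to 4975 in β-catenin tumours over both sets. Of 16 relatives and partners of the 9 genes, 0 were called in set 1 by limma. With each reporter 5 had an unadjusted p under 0.05 there, again without a computed share of all genes. In set 2, where 17% of all genes were called, 2 of the 16 were called. These were Siglecg, at the low values given above, and Spint2, a membrane protease inhibitor, which was higher (0.77, adjusted p = 0.0115 by limma).

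The second question was whether the antigen changed the 9 genes. None was called in p53 tumours of set 1, in β-catenin tumours of either set or in the test of whether the driver difference depended on the antigen, by limma, edgeR or DESeq2, and 0% of all genes was called by limma in each. DESeq2 gave an adjusted p for only 8 of the 9 genes in each. DESeq2 called 9, 18, 10 and 17 of all genes in these 4 tests in that order, and edgeR 0. At an unadjusted p under 0.05 there were 0 of the 9 in p53 tumours, 1 in β-catenin tumours of set 1, 1 in those of set 2 and 0 for the dependence on antigen. In β-catenin tumours of set 1 the gene was Prom1, lower with lucOS at 15.3 and 61.0 than with luc (-3.61 ± 1.45, unadjusted p = 0.0295, adjusted p = 1). In those of set 2 it was Sox9, higher with lucOS (2.19 ± 0.96, unadjusted p = 0.0452, adjusted p = 1).

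Both lucOS β-catenin tumours of set 1 lay below all 4 luc β-catenin tumours for Gpc3, Krt19, Krt7 and Prom1, as did 2.95% of all genes, and 6.34% did not overlap in either direction. All 9 differences were negative there, with a median of -1.49 against 0.00 over all genes. In the β-catenin tumours of set 2, 7 of the 9 differences were positive, with a median of 0.39 against -0.01, and all 9 genes overlapped between groups, against 4.54% of all genes that did not. In p53 tumours 6 of 9 were negative, with a median of -0.30, and all 9 genes overlapped too, against 9.7% of all genes that did not. The set 1 comparisons share their lucOS β-catenin tumours, so the low values there and in the driver comparison are the same values. Intervals were wide: for Afp the antigen difference had a 95% interval from -1.82 to 4.15 in p53 tumours, from -5.57 to 0.76 in β-catenin tumours of set 1 and from -6.92 to 4.19 in those of set 2.

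**Figure D5:**
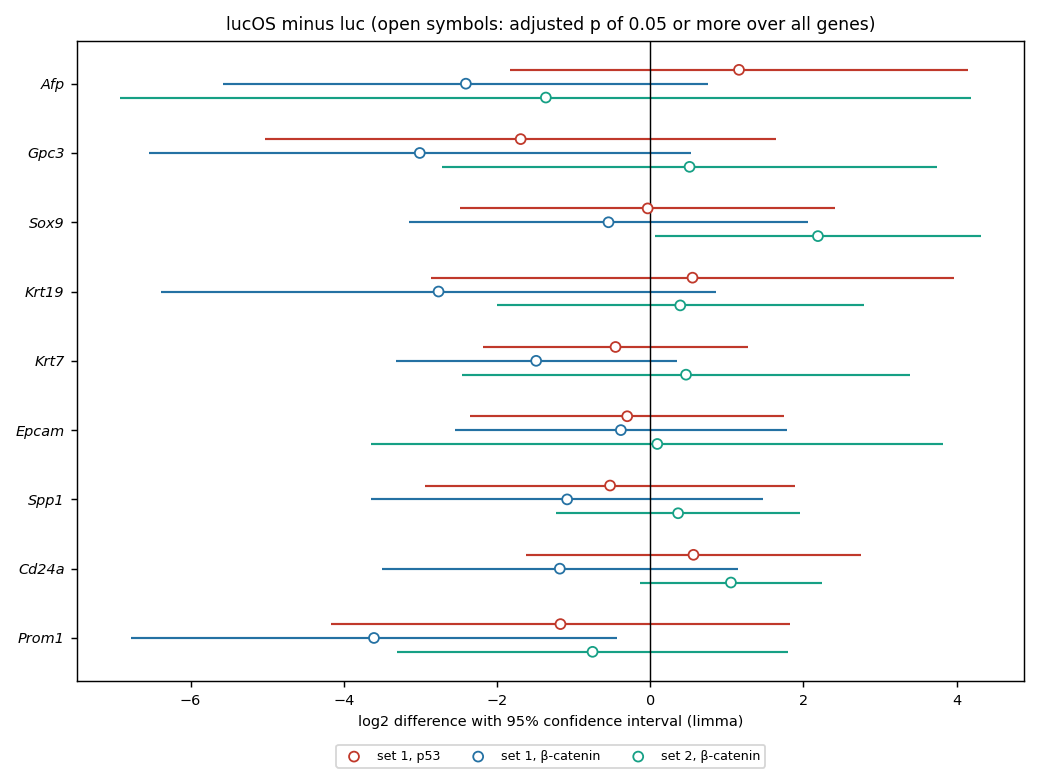
Difference of lucOS from luc tumours (log2, limma) for each gene in p53 tumours of set 1 and β-catenin tumours of both sets, with 95% confidence intervals. All points are open since none passed, and Prom1 in set 1 (-3.61) and Sox9 in set 2 (2.19) have intervals that leave out 0.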

How the data were processed

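RNA was sequenced from 22 tumours. The deposited signal is a normalised read count, per RefSeq transcript in the first table (33068 rows) and per symbol in the second. The submitters' processing notes list TopHat2, featureCounts, DESeq2 and mm10, with no version. For both sets, 100% of values were whole multiples of 1 read within 0.01 reads, so reads were recovered for depth and count models. Each gene was represented by its most abundant transcript. Symbols turned into dates were restored in the first table (53) and dropped in the second (27).

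Log2(value + 1) was fitted with limma 3.58.1 (trend; R 4.3.3), all groups of a set together. Genes needed values of 10 or more in 2 tumours (set 1, 16108 genes) or 3 (set 2, 15625). This scale understates changes of low genes. Adjusted p-values are Benjamini-Hochberg over all genes, with calls under 0.05. Counts at an unadjusted p under 0.05 are given without the share of all genes under it, so by themselves they show no excess. Alternatives were TMM rescaling, median centring, a pseudocount of 5, no filter, the compared groups alone, edgeR 4.0.16, DESeq2 1.42.0, summed transcripts, each tumour left out and, in set 2, tumours named JAX only. The fit was tested on simulated data.

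The members, lists and tests were chosen with earlier results of these data known. Beyond the 9 genes, named genes are up to 4 called genes of a list with the largest difference per driver contrast, the 3 most similar profiles per gene, and Trp53 and Axin2. A listed bile duct gene is not reported here. Strand is not stated, so overlapping genes cannot be told apart.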

Additional observations from a re-analysis of the deposited data

Results flagged for a closer look

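In groups of 4 tumours, 7 of 18 pairs of gene and group had 1 tumour whose gap to its nearest neighbour exceeded Dixon's 95% critical value, as a share of the group's range; chance gives this in about 5% of groups of normally distributed values, and the 9 genes share their tumours. These deposited values are skewed, and on the log2(value + 1) scale, a check chosen after seeing the data, 1 of the 18 exceeded it, Gpc3 in the luc β-catenin tumours. In the luc β-catenin tumours of set 1, tumour 1 stood apart for Gpc3, at 20174, and for Prom1, at 4828, and tumour 4 for Spp1, at 3934. In the lucOS p53 tumours of set 2, tumour 1 stood apart for Krt19, at 258, for Krt7, at 213, and for Prom1, at 710.0. Tumour 2 of that group stood apart for Epcam, at 4074, where the next tumour was at 137. All 7 were high values on the linear scale.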

How the results depend on the processing

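Of 927 values of the 9 genes under alternatives, 827 kept their direction and side of the threshold, 78 changed sign, 20 lost a call and 2 gained one; the cause was not tested. With luc in set 1, the 1 called gene (Sox9) stayed 1 in all alternatives except without luc p53 tumour 1 or 2, giving a range of 0 to 1 when single tumours were left out. With lucOS in set 1, the 1 called gene became 0 under TMM rescaling, median centring, no filter, edgeR, the compared groups alone and summed transcripts, 2 in DESeq2 (Sox9 and Krt19), and 0 to 1 when single tumours were left out. In set 2, the 1 called gene (Cd24a) became 0 with no filter, the compared groups alone and tumours named JAX only, and 0 to 1 when single tumours were left out (1 without lucOS β-catenin tumour 1, and 1 without tumour 2, where it was Afp and not Cd24a). On recovered reads, edgeR called 1785, 418 and 2230 of all genes in these comparisons and DESeq2 3303, 2053 and 3842, against 2431, 678 and 2656 by limma. In each of them DESeq2 gave an adjusted p for only 8 of the 9 genes. No paired analysis was possible because tumours were numbered in record order. None of the sign changes below passed the test before.

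For the driver difference with luc in set 1, the sign changed for Gpc3 to 0.12 in edgeR and 0.10 in DESeq2. For the driver difference in set 2, the sign changed for Prom1 to 0.13 by TMM rescaling and 0.0901 by median centring and 0.31 in edgeR and 0.30 in DESeq2 and 0.97 with JAX names only, and for Afp to 0.0900 in edgeR and 0.10 in DESeq2, and for Krt19 to -0.47 in edgeR and -0.47 in DESeq2, and for Krt7 to -0.17 in edgeR and -0.18 in DESeq2, and for Epcam to 1.86 with JAX names only, and for Spp1 to 0.47 with JAX names only. For the antigen difference in β-catenin tumours of set 1, the sign changed for Sox9 to 0.29 in edgeR and 0.28 in DESeq2. For the antigen difference in β-catenin tumours of set 2, the sign changed for Afp to 0.94 in edgeR and 0.95 in DESeq2, and for Epcam to -0.00554 in edgeR and -0.00260 in DESeq2. For the dependence of the driver difference on antigen, the sign changed for Sox9 to 0.60 in edgeR and 0.60 in DESeq2, and for Epcam to 0.0242 in edgeR and 0.0266 in DESeq2. 

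Leaving out single tumours changed signs as follows, with the lowest and highest log2 values. In the driver difference with luc in set 1, Afp ran from -0.16 to 1.57, Cd24a ran from -0.35 to 1.02, Prom1 ran from -0.88 to 1.07. In the driver difference in set 2, Epcam ran from -2.37 to 0.24, Gpc3 ran from -2.51 to 0.0777, Krt19 ran from -0.21 to 1.39, Prom1 ran from -1.11 to 0.90, Sox9 ran from -0.72 to 0.27. In the antigen difference in p53 tumours, Cd24a ran from -0.0571 to 1.40, Epcam ran from -1.03 to 0.70, Krt19 ran from -1.07 to 2.12, Krt7 ran from -1.19 to 0.19, Sox9 ran from -0.65 to 0.80, Spp1 ran from -1.40 to 0.32. In the antigen difference in β-catenin tumours of set 1, Epcam ran from -0.79 to 0.0250, Sox9 ran from -2.68 to 1.59, Spp1 ran from -2.99 to 0.82. In the antigen difference in β-catenin tumours of set 2, Afp ran from -4.43 to 0.49, Epcam ran from -0.59 to 0.82, Gpc3 ran from -0.85 to 1.99, Krt19 ran from -0.0756 to 0.89, Krt7 ran from -0.0640 to 0.81, Prom1 ran from -1.84 to 0.18, Spp1 ran from -0.0830 to 0.99. In the dependence of the driver difference on antigen, Epcam ran from -1.08 to 0.65, Gpc3 ran from -2.99 to 0.0687, Sox9 ran from -2.64 to 1.62, Spp1 ran from -2.46 to 1.34. 

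With 2 to 4 tumours a group, the spread between tumours set the precision, and where 1 tumour is left in a group its spread is assumed to be that of the other groups.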
